A study of Homo sapiens with 20 samples.

Results

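Chromosome 19 carries several dense arrays of zinc finger genes, and the H3K4me3 regions inside 5 of them were examined in WM164, a BRAF-mutant human melanoma cell line. H3K4me3 is trimethylation of lysine 4 on histone H3, a mark found at active gene starts, and it was measured by chromatin immunoprecipitation and sequencing. Peaks of all libraries lying within 1000 bp of each other were merged into regions. A region was taken when its midpoint fell in one of 5 windows of GRCh37 chromosome 19, a choice by position that used no signal. In Mb, the windows run from 19.7 to 24.5 (labelled 19p12), 36.5 to 38.5 (19q13.12), 44.3 to 45 (19q13.31), 52.3 to 54.2 (19q13.41) and 56.7 to 58.95 (19q13.43). They held 220 of the 31428 regions of the series, namely 49, 56, 20, 44 and 51 in that order. Regions are named below by the label of their window and by number within it, counted from the short-arm end. Below, a band means such a window, and a region can lie in a neighbouring cytoband. For example, 19p12 regions 1 to 10 lie in 19p13.11.

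All cells were WM164, and each of 5 groups had 2 H3K4me3 libraries. Parental cells received DMSO, the drug's solvent, for 3 days. Colony cells grew in 50 nM dabrafenib, a BRAF kinase inhibitor, for 45 days. Resistant cells had more than 90 days at that dose. The remaining groups overexpressed GFP, a marker protein taken here as the control, or NRAS carrying the oncogenic change Q61K. The sources used here do not give the promoter that drives the transgenes or say whether any group is 1 clone. The drug groups had no solvent control of their own duration. All groups stem from 1 cell line, and no label says that the libraries of a group are separate cultures, so p-values reflect only how far these samples vary, and that variation may be technical.

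KRAB zinc finger genes arose by repeated tandem duplication, so neighbours in an array are often close copies. Their proteins bind DNA through a row of zinc fingers, many of them within transposable elements, and the KRAB domain recruits TRIM28, a scaffold that brings in the histone methyltransferase SETDB1 and leads to H3K9me3, a repressive mark. The arrays are unusual in carrying H3K9me3 over the zinc finger exons of the genes while the gene starts are accessible and transcribed. ZNF91 and ZNF93 of the 19p12 array are known for silencing SVA and LINE-1 retrotransposons.

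The promoters of these arrays differ in sequence between bands. RefSeq promoters of assembly GRCh38.p14 were taken from the runs of neighbouring genes ZNF101 to ZNF254 (19p12), ZNF565 to ZNF573 (19q13.12), ZNF283 to ZNF180 (19q13.31), ZNF577 to ZNF331 (19q13.41) and ZSCAN5A to ZNF584 (19q13.43). The runs hold 37, 29, 20, 38 and 56 zinc finger genes, of which 29, 27, 16, 31 and 48 had a promoter sequence. The peaks lie on GRCh37 and positions were not converted, so no promoter is tied to any single region. The 250 bases before the start of 4 genes are shown, on the plus strand, to let a pair of close 19p12 copies be read beside 1 promoter each from 19q13.12 and 19q13.43. Capitals mark CpG dinucleotides and the 8-letter word CCAATCAG.
ZNF93: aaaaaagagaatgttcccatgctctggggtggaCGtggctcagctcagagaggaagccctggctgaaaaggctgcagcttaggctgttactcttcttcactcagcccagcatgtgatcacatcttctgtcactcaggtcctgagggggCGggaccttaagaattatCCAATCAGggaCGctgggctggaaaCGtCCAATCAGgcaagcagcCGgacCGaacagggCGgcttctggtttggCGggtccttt
ZNF486: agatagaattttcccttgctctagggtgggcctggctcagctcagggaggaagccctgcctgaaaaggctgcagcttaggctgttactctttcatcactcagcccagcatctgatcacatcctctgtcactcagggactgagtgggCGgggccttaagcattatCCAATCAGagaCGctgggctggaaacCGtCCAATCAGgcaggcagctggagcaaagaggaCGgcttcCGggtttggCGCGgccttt
ZNF568: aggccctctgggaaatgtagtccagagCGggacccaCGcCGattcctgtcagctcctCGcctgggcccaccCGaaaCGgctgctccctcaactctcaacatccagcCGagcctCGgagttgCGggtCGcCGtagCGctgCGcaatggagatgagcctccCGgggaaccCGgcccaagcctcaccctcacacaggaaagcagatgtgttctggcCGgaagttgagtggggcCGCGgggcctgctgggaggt
ZNF583: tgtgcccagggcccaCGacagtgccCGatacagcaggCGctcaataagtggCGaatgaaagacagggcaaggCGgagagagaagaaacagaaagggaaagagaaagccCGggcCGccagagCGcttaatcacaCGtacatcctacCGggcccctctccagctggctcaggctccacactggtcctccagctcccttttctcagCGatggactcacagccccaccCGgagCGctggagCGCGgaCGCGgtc

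The 2 promoters from 19p12 were 88.0% identical and each held CCAATCAG 2 times. The word contains CCAAT, the box bound by the factor NF-Y. It was picked after 8-letter words had been compared across these promoters, so its counts are a description only. Searched on both strands, it was in 29 of 29 promoters of the 19p12 run, 0 of 27 in 19q13.12, 0 of 16 in 19q13.31, 1 of 31 in 19q13.41 (3.23%) and 1 of 48 in 19q13.43 (2.08%). Among all 27305 promoters of the table, 3.98% held it. A match marks letters and not a bound site.

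The 19p12 promoters were also the poorest in CpG, the dinucleotide that marks CpG islands. Their median was 8 CpG per 250 bases, against 18, 13, 18 and 17 in the runs of 19q13.12, 19q13.31, 19q13.41 and 19q13.43 and 11 over all promoters. The median identity of a promoter to its closest relative in the same run was 86.0% in 19p12, 68.4% in 19q13.41 and between 56.8% and 59.0% in the other three runs. The libraries were single reads of 50 bp. Whether reads from such close copies were assigned correctly in any region was not tested.

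**Figure D1:**
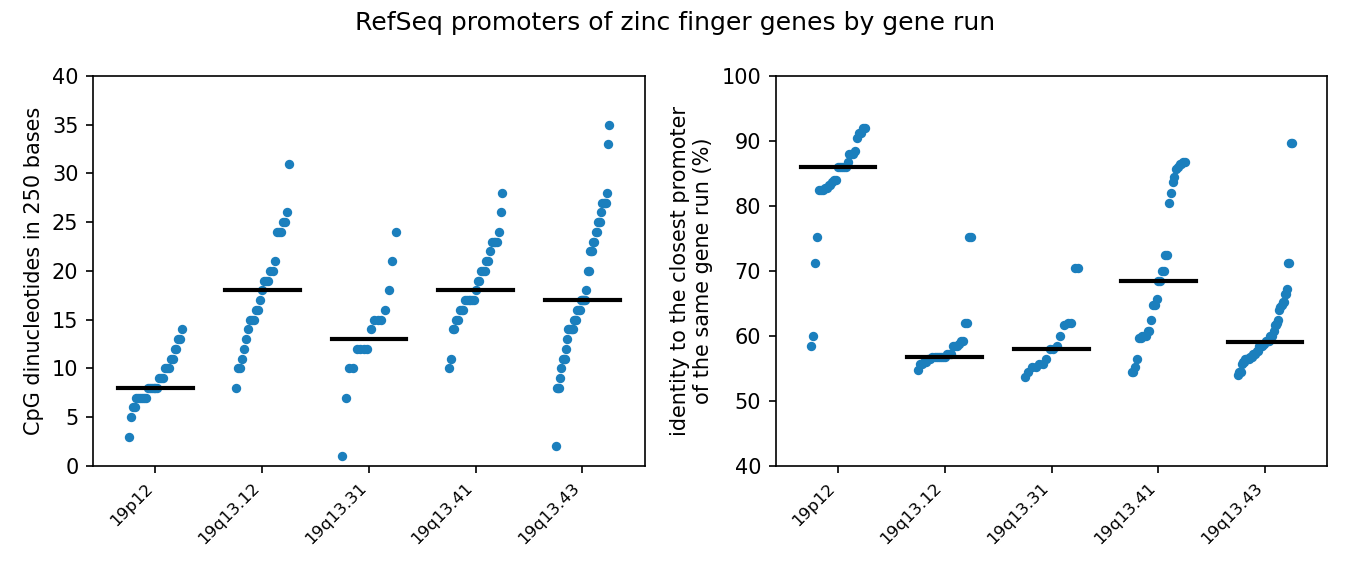
Each point is the RefSeq promoter (250 bases) of 1 zinc finger gene, with the number of CpG dinucleotides on the left and the identity to the closest promoter of the same gene run, in percent, on the right. Black bars are medians, and the 19p12 run has the lowest median in CpG (8) and the highest in identity (86.0%).

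The clusters held a larger share of regions marked in every library than the rest of the genome, given here as a description. A peak was present in all 10 libraries in 121 of the 220 regions, or 55.0%, against 38.3% of the other 31208 regions and 47.8% of the 1377 other regions of chromosome 19. This share was 38.8% in 19p12, 39.3% in 19q13.12, 75.0% in 19q13.31, 52.3% in 19q13.41 and 82.4% in 19q13.43. Regions marked in all 10 libraries were narrower in the clusters, with a median length of 2649 bp against 4138 bp for other such regions. A further 38 of the 220 regions had a peak in a single library, a lower share than the 8237 of the other 31208 regions. Of the 38, 36 had it in a GFP or NRAS library, and the median length of the 38 was 172.5 bp. How such single peaks split by group in the other regions was not counted. These 38 were too sparse for a test, which left 182 tested regions.

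The broadest regions in parental cells kept a peak in all 10 libraries. The one with most bases under peaks was 19q13.12 region 3 (chr19:36543581-36548539). It covered 4297 and 4044 bp in the parental pair, 3677 and 3709 bp in the colony pair, 2861 and 2838 bp in the resistant pair, 4227 and 4303 bp in the GFP pair and 4083 and 3708 bp in the NRAS pair. The resistant libraries were the lowest and did not overlap any other group. Next came 19q13.43 region 45, 19q13.43 region 11, 19q13.31 region 13 and 19q13.12 region 8, with parental means between 3338.5 and 3554 bp.

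The peak lists differed in size, and this moved with the groups. The 2 resistant lists held 19407 and 19116 peaks, the colony lists 21421 and 21586, the parental lists 29331 and 30144, the NRAS lists 40718 and 37722 and the GFP lists 41899 and 45540. The shortest peak was 202 and 180 bp in parental libraries, 282 and 284 bp in the colony pair, 255 and 256 bp in the resistant pair, and 142 to 153 bp in the transgene libraries. List length, shortest peak and drug exposure cannot be told apart in this design. The lists carry no read counts, so the depth is unknown and no interval that needs it is given. Melanocyte marker genes could not be placed on this build, so the labelled cell type was not checked here.

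Within the windows, the resistant pair had peaks in 132 and 133 of the 220 regions, the colony pair in 151 and 155, the parental pair in 154 and 151, the NRAS pair in 179 and 168 and the GFP pair in 174 and 182. Parental and colony libraries thus overlapped in the clusters, while over all other regions the marked share was 59.05% ± 3.417 in parental, 46.12% ± 0.8315 in colony and 43.56% ± 0.6118 in resistant cells (mean ± SD, n = 2). The clusters held 0.6013% ± 0.02384 of all covered bases in parental, 0.676% ± 0.006313 in colony, 0.5828% ± 0.005538 in resistant, 0.6248% ± 0.002378 in GFP and 0.603% ± 0.01709 in NRAS cells (mean ± SD, n = 2). Colony libraries were the highest of all 10 on this measure. A comparison of 2 against 2 libraries cannot give an exact two-sided p below 0.333, so no test was run between single groups.

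Pooling the 4 dabrafenib libraries against the 6 unexposed ones, 3 summary values were tested with exact two-sided permutation tests. The share of member regions with a peak was 64.89% ± 5.434 under drug and 76.36% ± 5.885 without (mean ± SD, exact permutation p = 0.0476, Benjamini-Hochberg adjusted p = 0.143 over 3 values). The share of covered bases lying in the clusters was 0.6294% and 0.6097% (exact permutation p = 0.343, adjusted p = 0.514). The median width of members relative to other regions marked in all libraries was 0.6342 in both (exact permutation p = 1, adjusted p = 1). None of these 3 differences passed after adjustment, and the pooled drug group joins colony and resistant libraries, which differed from each other. Set against the 658 other chromosome 19 regions marked in all libraries instead, the relative width was 0.7684 ± 0.03237 under drug and 0.6966 ± 0.0256 without (exact permutation p = 0.00952, the smallest that shuffling single libraries allows, adjusted p = 0.0286). The median width of those 658 regions was 1921.5 to 2599 bp under drug and 2413 to 2980 bp without. All these tests shuffled single libraries, although they came in pairs from 5 groups. Their smallest p is thus below what groups as units could give.

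The 5 clusters followed different patterns across the libraries, farthest apart in 19p12 and 19q13.43. In 19p12, peaks covered 44.51 and 54.28 kb in the parental pair, 51.32 and 53.92 kb in the colony pair, 24.27 and 26.1 kb in the resistant pair, 57.58 and 57.98 kb in the GFP pair and 51.24 and 58.3 kb in the NRAS pair. The resistant libraries stood well below all 8 others. In 19q13.43, peaks covered 70.04 and 81.61 kb in the parental pair, 68.1 and 71.71 kb in the colony pair, 76.51 and 78.82 kb in the resistant pair, 81.79 and 83.44 kb in the GFP pair and 75.83 and 85.6 kb in the NRAS pair. There the resistant libraries fell inside the parental range. Dividing 19p12 by 19q13.43 within each library gave 0.308 and 0.341 in the resistant libraries and 0.635 to 0.754 in the 8 others.

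In the other three clusters resistant coverage was lower as well, by less than in 19p12. Mean coverage in 19q13.12 was 51.15 kb in the parental pair, 62.78 kb in the colony pair and 38.95 kb in resistant cells, and the lowest colony library lay above the highest of any other group. In 19q13.31 it was 30.86, 34.41 and 25.73 kb for parental, colony and resistant cells. In 19q13.41 it was 51.5, 55.94 and 34.1 kb in the same order. In both, the 2 resistant libraries lay below all 8 others. These kb values were not scaled to the whole library. Outside the clusters, regions marked in all libraries were narrower in resistant cells as well. The resistant libraries had medians of 2542 and 2483 bp there, below the parental 3041 and 2786 bp. A kb value alone therefore does not show whether a cluster fell more than the rest of the genome.

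**Figure D2:**
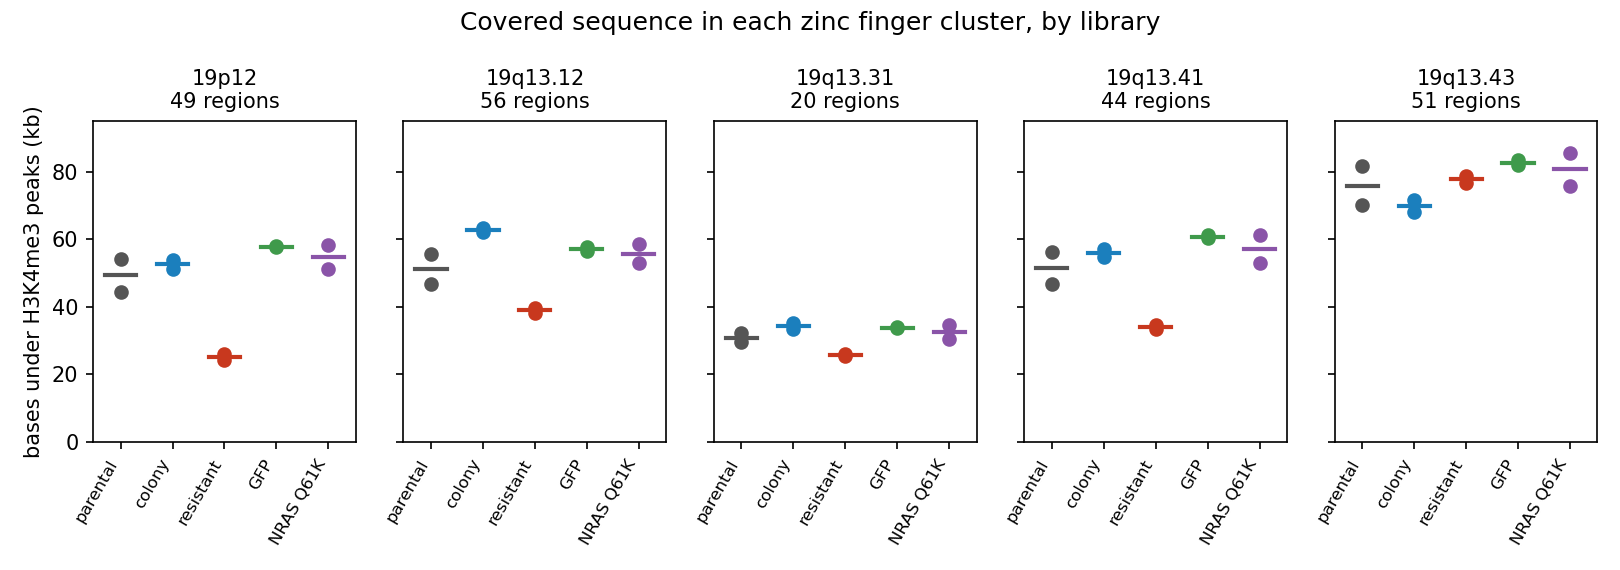
Points give the bases under H3K4me3 peaks, in kb, of each library in each cluster, and bars are group means (2 libraries per group). Resistant libraries are lowest in 4 clusters and sit at 76.51 and 78.82 kb in 19q13.43, within the parental range.

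Width was then compared region by region. For each region the bases under peaks were put on the scale log2(bases + 200), the median over regions marked in all libraries was subtracted from each library, and limma was fitted to the 23153 regions that 2 or more libraries marked. A region was called wider or narrower at a Benjamini-Hochberg adjusted p of at most 0.05 over all of them. It was called gained when both libraries of the first group and neither of the second had a peak, and lost in the reverse case, with no test. A region that entered only through the pair of libraries in which it is marked had to differ, so counts are read beside those over all regions. The absence of a peak means that the authors' caller reported none there, and how much of the mark remained is unknown. Libraries without a peak entered the fit at the same value apart from the centring. Such groups add almost no spread, so adjusted p-values at regions empty in a group may be too small. Where a group had no peak, covered bases are given and no fold, since that fold would depend on the 200 bases added. The differences flagged near the end are the exception.

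**Figure D3:**
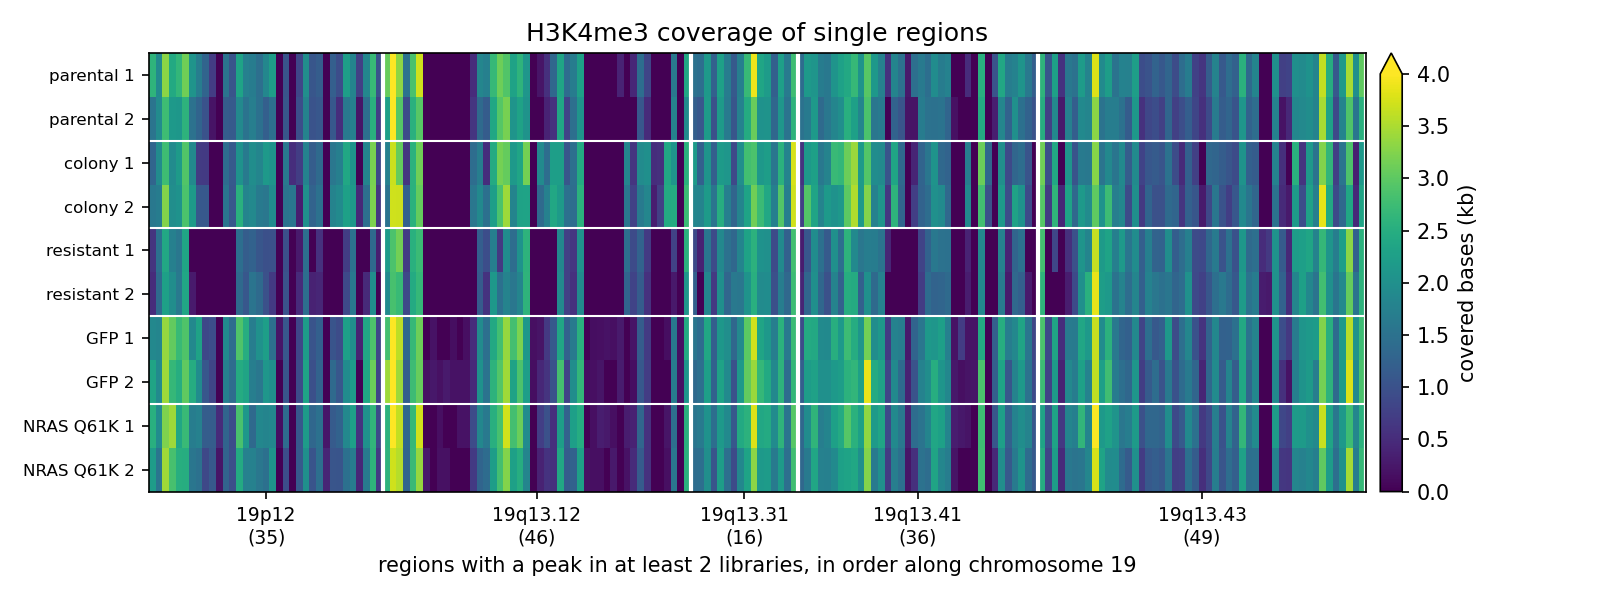
Rows are the 10 libraries, columns the 182 tested regions in order along chromosome 19, split by cluster (number of regions in brackets), and colour is covered bases in kb, capped at 4. Dark runs in the resistant rows show the stretches without peaks, and the faint bands in the GFP and NRAS rows of 19q13.12 show short peaks.

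Colony cells had wider H3K4me3 than parental cells mainly at 19q13.12 and few losses. Of the 182 tested members, 16 were wider (8.79%, against 4.29% of all regions) and 13 narrower (7.14%, against 16.7% of all regions). Of 64 members empty in both parental libraries, 6 were gained (9.38%, against 1.71% of all such regions). Of 149 members marked in both parental libraries, 4 were lost (2.68%, against 15.6%). On the rest of chromosome 19 the 4 shares were 1.86%, 15.0%, 1.74% and 9.40%.

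Over all regions, narrow ones were lost more often, so losses were also counted within classes of width. Among regions covering 1000 to 2000 bp in parental cells, 1 of 81 members was lost (1.23%), against 8.63% of all 2933 such regions. Among those covering 500 to 1000 bp, 1 of 16 members was lost, against 40.3% of all. Among regions of 2000 bp or more it was 0 of 46 members, against 1.01%.

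By band, 9 of 46 tested regions were wider in 19q13.12, 4 of 36 in 19q13.41, 2 of 35 in 19p12, 1 of 16 in 19q13.31 and 0 of 49 in 19q13.43. In 19q13.43, 6 of 49 tested regions were narrower, a share below the 16.7% of all regions. Members marked in all libraries had a median log2 change of 0.02, beside -0.01 over the other regions of that kind. Leaving out the parental 1 library brought the narrower count to 8 and the gained count to 10, and leaving out colony 2 brought the lost count to 8. With peaks of −log10 q of at least 10, 8 members were wider, and with lists of equal length 12 were gained and 2 lost.

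The broadest gained region was 19q13.12 region 53 (chr19:38084351-38086904). It covered 0 and 0 bp in the parental pair, 2406 and 2445 bp in the colony pair, 0 and 0 bp in the resistant pair, 144 and 0 bp in the GFP pair and 219 and 168 bp in the NRAS pair (limma adjusted p = 8.70e-05 for colony against parental). The region was broad in colony cells only, and the transgene libraries had at most a short peak there.

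A different course was seen at 19q13.12 region 46 (chr19:37808149-37810101), the 1 member gained in both colony and resistant cells. It covered 0 and 0 bp in the parental pair, 1843 and 1590 bp in the colony pair, 1460 and 1291 bp in the resistant pair, 0 and 0 bp in the GFP pair and 324 and 192 bp in the NRAS pair. The limma adjusted p was 5.37e-05 for colony and 3.33e-05 for resistant against parental cells. The lowest drug library had 1291 bp, and the unexposed ones reached at most 324 bp.

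Another 4 members had peaks in both colony libraries and in none of the other 8, or 1.82% of the 220, against 0.245% of all regions. They were 19p12 region 28 with 518 and 1565 bp, 19q13.41 region 36 with 1329 and 995 bp, 19q13.12 region 52 with 559 and 757 bp and 19q13.12 region 51 with 520 and 332 bp. The first of these varied most between its 2 libraries. The mean −log10 q of these peaks, the authors' strength value, was 10.1 for 19p12 region 28, 9.09 for 19q13.41 region 36 and 5.18 for 19q13.12 region 52.

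The losses lay in 19q13.41 and 19p12, and the resistant libraries lacked the same peaks. The clearest was 19q13.41 region 44 (chr19:54024293-54025528), with 1215 and 1021 bp in the parental pair, 858 and 900 bp in the GFP pair and 1107 and 1130 bp in the NRAS pair, and 0 bp in all 4 drug libraries (limma adjusted p = 6.11e-05 for colony and 5.22e-05 for resistant against parental). The other three were 19p12 region 14, 19q13.41 region 37 and 19q13.41 region 21, with parental means of 456.5, 678 and 243 bp. With lists of equal length these no longer passed in colony against parental cells (limma adjusted p = 0.258, 0.333 and 0.624). With peaks of −log10 q of at least 10, the first and last had no peak left in either group, so that setting cannot compare them. Every unexposed library and no drug library had a peak in these 4 members, or 1.82% of the 220, against 4.69% of all regions. They were the 4 losses of colony cells, and the colony and resistant comparisons share the parental libraries.

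At 19q13.43, 6 of 49 tested regions were narrower in colony cells, beside 16.7% of all regions, and 3 without centring. Both regions described here kept their peaks. Region 50 (chr19:58911771-58914287) covered 1986 and 1552 bp in the parental pair, 349 and 467 bp in the colony pair, 1225 and 1524 bp in the resistant pair, 2047 and 1884 bp in the GFP pair and 1838 and 1691 bp in the NRAS pair. Its log2 change in colony against parental cells was -1.72 ± 0.15 (SE, limma adjusted p = 0.000172). Region 42 (chr19:58739094-58741580) covered 1937 and 1887 bp in the parental pair and 605 and 950 bp in colony libraries, a log2 change of -1.16 ± 0.15 (SE, limma adjusted p = 0.00137). In both regions the colony libraries were below all 8 others.

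Resistant cells lacked some of the H3K4me3 peaks of 19p12, 19q13.41 and 19q13.12, while members as a whole were lost less often than all regions. With libraries centred, regions of 19q13.43 were more often wider than narrower. Of the 182 tested members, 18 were wider than in parental cells (9.89%, against 7.93% of all regions) and 40 narrower (22.0%, against 20.6% of all regions). Of 64 members empty in parental cells, 3 were gained (4.69%, against 4.63%), and of 149 marked there, 19 were lost (12.8%, against 22.0%). On the rest of chromosome 19 the shares were 3.52% wider, 25.1% narrower, 3.70% gained and 14.9% lost, so the members' wider share was close to that of all regions and above that of their chromosome, and their lost share was below that of all regions and closer to that of their chromosome. Within classes of parental width, members were lost in 5 of 6 cases under 500 bp (all regions 85.5%), 6 of 16 from 500 to 1000 bp (37.5%, all 62.7%), 8 of 81 from 1000 to 2000 bp (9.88%, all 17.7%) and 0 of 46 at 2000 bp or more (all 1.10%).

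The bands differed in direction. In 19p12, 16 of 35 tested regions were narrower and 0 wider. In 19q13.41, 12 of 36 were narrower and 0 wider, and in 19q13.12, 8 of 46 were narrower and 3 wider. In 19q13.43, by contrast, 14 of 49 were wider and 3 narrower, and in 19q13.31 the count was 1 of 16 each way. Of members marked in both parental libraries, 8 of 31 were lost in 19p12, 6 of 30 in 19q13.41 and 3 of 25 in 19q13.12. In 19q13.43 it was 2 of 47 and in 19q13.31 0 of 16. Over all such regions the share was 22.0%, and only 19p12 lay above it, by little. No test of the difference between bands was made.

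The excess of wider calls in 19q13.43 rests on the centring of libraries, while 19p12 had only narrower calls with and without it. Over regions marked in all libraries, the resistant libraries lay at -0.19 and -0.22 on the log2 scale before centring, the lowest of the 10. Without centring, 19q13.43 had 4 wider and 5 narrower regions, 19p12 had 0 and 23, 19q13.41 had 0 and 16, 19q13.12 had 2 and 10 and 19q13.31 had 0 and 4. Members marked in all libraries had a centred median log2 change of -0.27 in 19p12 and 0.28 in 19q13.43. The wider count over all bands was 7 without parental 2, 11 without resistant 1 and 10 without resistant 2, and the gained count was 5 without parental 1. The wider count was 6 in all without centring and 8 with peaks of −log10 q of at least 10, and lists of equal length gave 5 gained and 8 lost members.

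**Figure D4:**
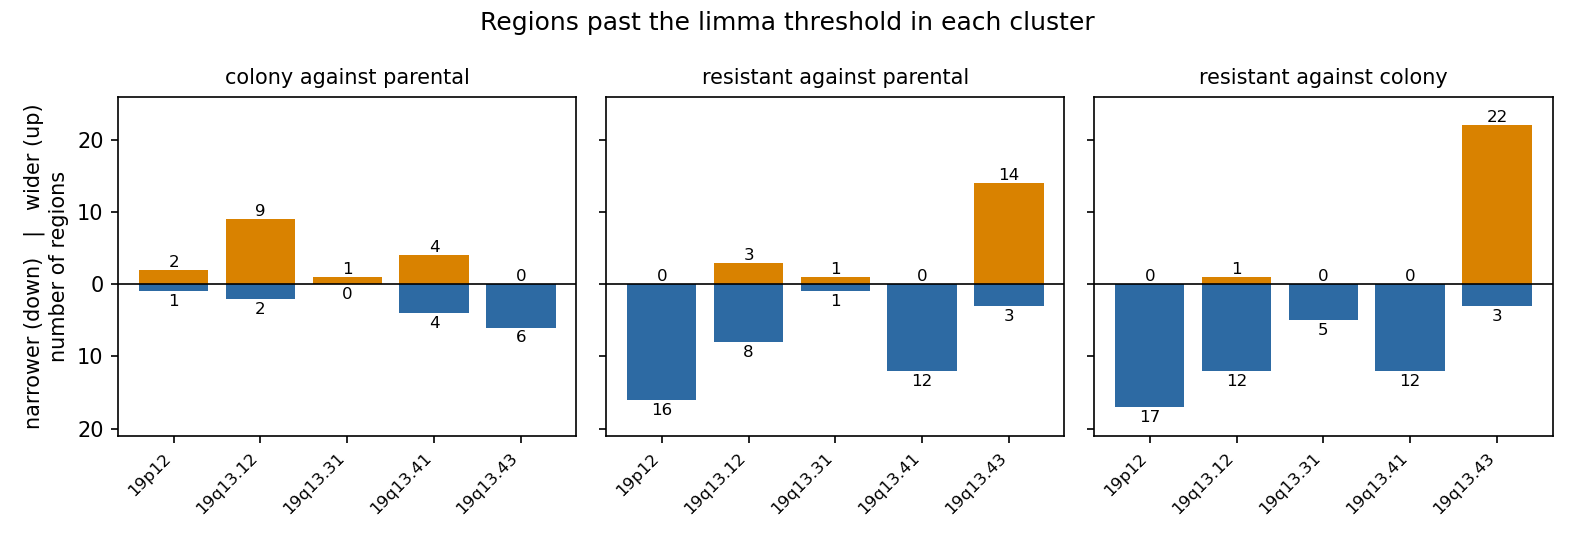
Bars give the number of tested regions per cluster that were wider (up) or narrower (down) at a limma adjusted p of at most 0.05, for each of 3 comparisons, with libraries centred. In 19q13.43 the resistant comparisons lean to wider regions (14 and 22), which became 4 and 8 without centring, while 19p12 has only narrower ones (16 and 17).

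Some of the lost regions were neighbours. From 19p12 region 11 to region 17 (chr19:20010962-21107483), over 1097 kb, neither resistant library had any peak. Of the 7 member regions there, 5 were marked in each parental library and 4 in each colony library, while region 12 had a peak in 1 GFP library alone and region 15 in the NRAS pair alone. Parental libraries covered 6.249 and 4.797 kb there, colony 3.935 and 4.837 kb, GFP 7.589 and 7.029 kb and NRAS 6.868 and 5.931 kb. The next member, region 18, still covered 1444 and 1365 bp in resistant libraries.

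Within this stretch, 19p12 region 16 (chr19:20958798-20960706) covered 1522 and 1181 bp in the parental pair, 1436 and 1559 bp in the colony pair, 0 and 0 bp in the resistant pair, 1904 and 1726 bp in the GFP pair and 1295 and 1270 bp in the NRAS pair (limma adjusted p = 9.46e-06 for resistant against parental). Its peaks were strong elsewhere, with a mean −log10 q of 50.6 in parental and 36.5 in colony cells. Region 17 covered 1043 and 1126 bp in the parental pair and 1130 and 1083 bp in colony libraries, and region 11 covered 1695 and 1282 bp and 690 and 1100 bp. For region 11 the limma adjusted p was 3.55e-05, but 0.333 with peaks of −log10 q of at least 10 and 0.296 with lists of equal length. All 3 were empty in both resistant libraries.

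A second such stretch ran from 19q13.41 region 17 to region 23 (chr19:52899896-53140715), over 240.8 kb. Of its 7 member regions, 4 were marked in each parental library, 3 in each colony library and 0 in the resistant ones, and 3 had a peak in a single transgene library. Peaks covered 5.018 and 2.737 kb in the parental pair and 4.137 and 4.627 kb in colony libraries. Both stretches were picked after the values had been seen. At its edge, 19q13.41 region 17 (chr19:52899896-52902497) covered 1800 and 1252 bp in the parental pair, 2353 and 2589 bp in the colony pair, 0 and 0 bp in the resistant pair, 1779 and 1893 bp in the GFP pair and 1905 and 1712 bp in the NRAS pair (limma adjusted p = 8.46e-06 for resistant against parental). Its neighbour 19q13.41 region 19 covered 1489 and 1055 bp in the parental pair and 1370 and 1302 bp in colony libraries and was also empty in both resistant ones (limma adjusted p = 2.16e-05).

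In all, 13 members had a peak in every library except the 2 resistant ones, 6 of them in 19p12, 3 in 19q13.12, 3 in 19q13.41 and 1 in 19q13.43. They were 5.91% of the 220 members, against 2.5% of all 31428 regions. Only regions marked in every library outside the resistant pair can show this pattern. Members were also more often marked in all 10 libraries, at 55.0% against 38.3% of other regions, so the 2 shares do not rest on like sets. No member was missing from both parental, both colony, both GFP or both NRAS libraries alone. Over all regions these shares were also small, at 0.0127%, 0.799%, 0.0573% and 0.00% in the same order. With peaks of −log10 q of at least 10, 19p12 region 40, whose mean −log10 q was 8 in parental cells, had no peak left in either group, and it did not pass with lists of equal length (limma adjusted p = 0.43).

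Gains of resistant cells were few. 19q13.43 region 36 (chr19:58446258-58446761) covered 504 and 301 bp and 19q13.43 region 37 (chr19:58458235-58458974) covered 668 and 275 bp, with 0 bp in all 8 other libraries. The mean −log10 q was 6.48 and 4.22. These are 2 of 220 members (0.909%), against 1.08% of all regions with that pattern, and since they entered the fit only through the resistant pair no p is given. Wider peaks in 19q13.43 were more often at regions already marked. Region 19 (chr19:57998612-58000593), chosen after its values were seen, covered 1024 and 845 bp in the parental pair, 1087 and 1289 bp in the colony pair, 1725 and 1766 bp in the resistant pair, 1439 and 1144 bp in the GFP pair and 1332 and 1113 bp in the NRAS pair. The 2 resistant libraries were the highest of all 10, and the log2 change against parental was 0.98 ± 0.14 (SE, limma adjusted p = 0.00117).

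Set directly against colony cells, resistant cells were narrower at 49 of 182 tested members (26.9%, against 11.5% of all regions) and wider at 23 (12.6%, against 11.0% of all regions). They had lost 19 of the 151 members marked in both colony libraries (12.6%, against 8.19%) and gained 2 of 65 empty ones (3.08%, against 5.18%). The rest of chromosome 19 gave 14.3% narrower, 8.31% wider, 6.92% lost and 5.18% gained. By colony width, the lost members were 1 of 2 under 500 bp (all regions 64.0%), 5 of 21 from 500 to 1000 bp (23.8%, all 37.7%), 10 of 72 from 1000 to 2000 bp (13.9%, all 8.52%) and 3 of 56 at 2000 bp or more (5.36%, all 0.915%). Members thus had the lower share in the narrow classes and the higher share in the wide ones.

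Most wider regions were again in 19q13.43. There, 22 of 49 tested regions were wider and 3 narrower, and the only other wider member was in 19q13.12. Narrower regions numbered 17 of 35 in 19p12, 12 of 46 in 19q13.12, 5 of 16 in 19q13.31 and 12 of 36 in 19q13.41. Without centring the wider count of 19q13.43 was 8 and the narrower count 5, and no other band had a wider region. The wider count over all bands was 12 without resistant 2, and the gained count was 4 without colony 2, with lists of equal length and with peaks of −log10 q of at least 10.

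Among these, 5 members were wider in colony than in parental cells and narrower in resistant than in parental cells. This is 2.75% of the tested members, against 0.505% of all tested regions, and both contrasts share the parental libraries. They are 19p12 region 41, 19q13.12 regions 19, 32 and 33 and 19q13.41 region 17, and they were found by their values. 19q13.12 region 33 (chr19:37406157-37408574) covered 1331 and 563 bp in the parental pair, 2238 and 2404 bp in the colony pair, 0 and 0 bp in the resistant pair, 1127 and 1021 bp in the GFP pair and 550 and 549 bp in the NRAS pair. Colony libraries were the highest and resistant ones empty, with a limma adjusted p of 0.0161 for colony against parental and 6.20e-05 for resistant against colony. The same order held at 19p12 region 41 (chr19:23455610-23457710), with 949 and 530 bp in the parental pair, 1732 and 1916 bp in the colony pair and 0 bp in both resistant libraries.

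Beside region 33, 19q13.12 region 32 covered 560 and 397 bp in the parental pair, 1432 and 1765 bp in the colony pair and 0 bp in both resistant libraries. 19q13.12 region 31 covered 232 and 0 bp in the parental pair, 1916 and 1389 bp in the colony pair and 0 bp in resistant libraries. The 3 neighbours thus shared the order colony above parental above or equal to resistant.

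Both 19q13.43 regions described as narrower in colony than in parental cells were wider in resistant than in colony cells. Region 50 had a log2 change of 1.59 ± 0.15 and region 42 of 1.58 ± 0.15 in resistant against colony cells (SE, limma adjusted p = 0.000147 and 0.000194). Resistant libraries covered 2260 and 2267 bp at region 42, the highest values of the 10. At region 50 their 1225 and 1524 bp remained below both parental libraries. Merging overlapping peaks alone left region 50 with a change of 0.54 and a limma adjusted p of 0.185.

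**Figure D5:**
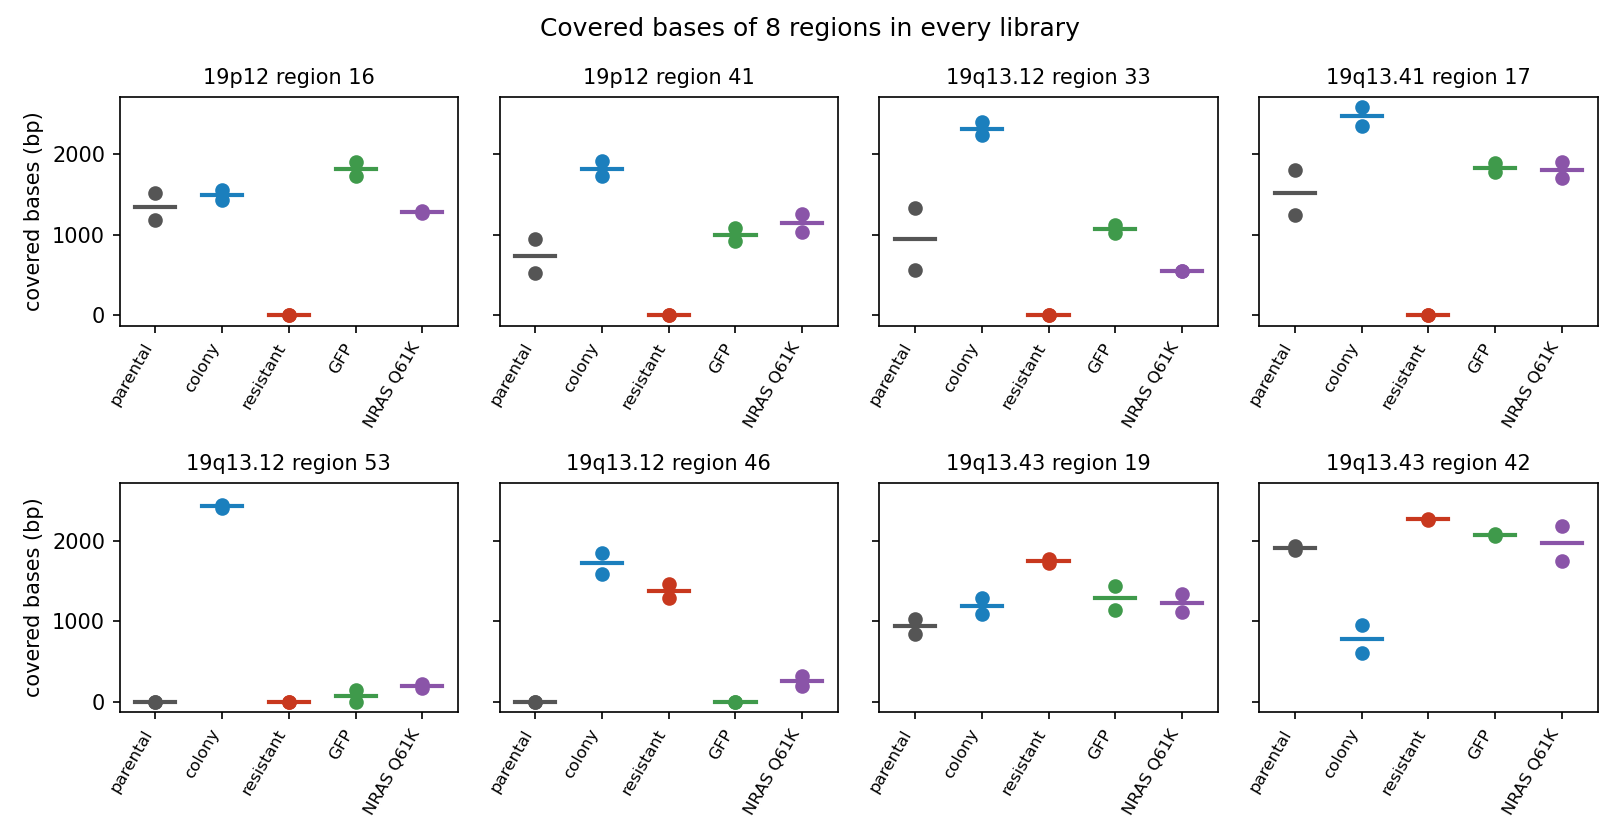
Covered bases in bp of 8 regions in every library, as points, with bars at the group means (2 libraries per group). The upper 4 regions have no peak in resistant cells, 19q13.12 region 53 is broad in colony cells only, and 19q13.43 region 42 is narrow in colony cells only.

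Few members passed the test between NRAS Q61K and GFP cells. Of the 182 tested members, 3 were wider (1.65%, against 5.06% of all regions) and 5 narrower (2.75%, against 2.18% of all regions). Of 27 members empty in GFP cells, 3 were gained (11.1%, against 15.5%), and of 163 marked there, 6 were lost (3.68%, against 3.18%). All 6 lost regions were among the 18 that covered under 500 bp in GFP cells (33.3%, against 16.1% of all such regions), and 0 of 68 members of 2000 bp or more were lost, against 0.00987% of all. The gained count was 6 without GFP 1, 7 without NRAS 1 and 15 without NRAS 2, and the lost count was 20 without GFP 1 and 12 without GFP 2.

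The members that passed carried short peaks in 1 of the 2 groups and none in the other. The narrower count was 0 with peaks of −log10 q of at least 10, with lists of equal length and with 1000 bases added. 19p12 region 15 covered 499 and 233 bp in the NRAS pair and 19p12 region 34 covered 237 and 410 bp, with 0 bp in all 8 others. Members marked in the NRAS pair alone were 0.909% of the 220, against 1.60% of all regions, and no p is given for them. 19q13.12 region 46, broad in both drug groups, covered 324 and 192 bp in NRAS and 0 bp in GFP libraries (limma adjusted p = 0.0143, or 0.0648 without NRAS 1). With peaks of −log10 q of at least 10 or lists of equal length, neither NRAS nor GFP libraries had a peak left there, so those settings cannot compare them. The 5 narrower members were short peaks found in both GFP libraries and no other (2.27% of the 220 members, against 1.08% of all regions), and their GFP means ran from 159 to 225.5 bp. They too entered the fit only through the pair that has them.

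Short peaks of the transgene libraries formed an evenly spaced series in 19q13.12. Between chr19:36767876 and 36796075, 10 member regions of 184 to 322 bp followed one another, 19q13.12 regions 9 to 18. GFP libraries had a peak in 3 and 8 of them and NRAS libraries in 3 and 5, while all 6 parental, colony and resistant libraries had none. From midpoint to midpoint, 7 of the 9 steps measured between 2.47 and 2.61 kb, and the other two measured 5.04 and 5.05 kb. Regions 11 and 15, which were counted as narrower in NRAS than in GFP cells, belong to this series. No repeat annotation of this build was used here, so whether the series lies on repeated sequence was not tested. A second group, regions 39 to 45 (chr19:37727762-37785116), had steps of 2.27, 2.51 and 2.51 kb among larger ones. GFP libraries marked 5 and 4 of these 7 regions, NRAS libraries 5 and 4, and parental 1 marked 1. The transgene libraries also had the longest peak lists and the shortest peaks, and the part of list length in these short peaks was not tested in single regions.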

How the data were processed

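The series lists 10 H3K4me3 libraries and 10 inputs, and the inputs were not used here. The authors deposited 1 peak list per library, called for each library separately, with peak positions in bases on GRCh37. The deposited score and the deposited fold enrichment (a ratio at the peak summit) were read and not used for a result. The deposited −log10 p-value was not used for a result, and the deposited −log10 q-value served to describe and filter peaks. MACS2 2.1.2, deepTools 2.5.4, SAMtools and BWA appear in the submitters' processing notes, without the step each served. The sources used here do not say how inputs or duplicate reads were handled.

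Peaks on the 22 autosomes and X were merged within 1000 bp with Python 3.11.15, numpy 2.4.6 and pandas 2.3.3. Covered bases plus 200, on the log2 scale and centred per library, were fitted with limma 3.58.1 (R 4.3.3; empirical Bayes with trend, 5 group means, no block), with Benjamini-Hochberg adjustment over 23153 regions. The fit was tested on simulated data with normal noise on the log2 scale. Those data had no libraries without a peak, so they do not check calls at regions empty in a group. Library summaries were compared by exact permutation tests (scipy 1.17.1). Bands came from circlize 0.4.16 and figures from matplotlib 3.10.9. Named regions are, per comparison, the 5 largest called changes each way and the 5 gained and 5 lost with the highest mean −log10 q, plus the 5 broadest in parental cells. Others are said to be chosen by their values. The members and lists were chosen with earlier results of these data known.

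Promoter letters came from RefSeq tables of GRCh38.p14. Genes whose symbols join 2 gene names were left out of the runs. As that build is not the peaks' build, gene names of regions, marker genes and the planned list of KRAB repression genes were not analysed here. Alternatives were peaks of −log10 q of at least 10, lists of equal length, no merging distance, 50 or 1000 bases added, no centring, no filter on sparse regions, at least 200 covered bases, a replicate block and leaving out each library.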

Additional observations from a re-analysis of the deposited data

Results flagged for a closer look

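For 5 regions the change against parental cells had opposite signs in colony and resistant cells, and the direct difference between resistant and colony cells passed the limma threshold. That difference, on the log2(bases + 200) scale, was -3.52 at 19q13.41 region 17 (adjusted p = 2.43e-06), -3.43 at 19q13.12 region 33, -3.12 at 19p12 region 41, -2.94 at 19q13.12 region 32 and -2.87 at 19q13.12 region 19. Both resistant libraries were empty at all 5 regions, so the sizes depend on the 200 bases added. Colony and resistant cells share the parental libraries in the first 2 contrasts, while the direct difference does not use them.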

How the results depend on the processing

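Counts of members were taken again under each alternative. With peaks of −log10 q of at least 10, the wider count was 8 in colony and 8 in resistant against parental cells, 4 members were gained in resistant against colony cells, and NRAS against GFP had 0 narrower and 0 lost. With lists of equal length, 12 were gained and 2 lost in colony against parental, 5 gained and 8 lost in resistant against parental, 4 gained in resistant against colony, and NRAS against GFP had 1 wider, 0 narrower and 0 lost. Without centring, 6 were wider in resistant against parental and 8 in resistant against colony cells. For NRAS against GFP, adding 1000 bases left 0 narrower, no filter left 2, and requiring 200 covered bases left 2 lost. The relative width of members against the rest of chromosome 19 differed by 0.0718 between drug and unexposed libraries (exact permutation over single libraries, adjusted p = 0.0286). The cause of these shifts was not tested.

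Leaving out 1 library at a time gave the following ranges. Colony against parental had 8 to 13 narrower, 6 to 10 gained and 4 to 8 lost. Resistant against parental had 7 to 15 wider and 3 to 5 gained, and resistant against colony had 12 to 21 wider and 2 to 4 gained. NRAS against GFP had 4 to 15 gained and 6 to 20 lost. The pooled drug difference in relative width ran from -0.00845 (without NRAS 2) to 0.00714, with -0.00447 without parental 2, -0.00692 without colony 1 and -0.00154 without colony 2.

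Of 505 alternative values for the 44 named changes past the limma threshold, 463 kept direction and call, 36 kept direction and lost the call, and 6 had no peak left in either group, so that only the centring offset remained (0.188 for 19p12 region 40 in resistant against parental cells at −log10 q of at least 10). Some settings gave no value for a region and are not among the 505. An example is 19p12 region 15 at −log10 q of at least 10 or with lists of equal length. Some named changes lie at regions that entered the fit only through the pair that has them. Their direction was fixed in advance, so their kept calls say nothing about stability. Replicate numbers did not pair the libraries: deviations of same-numbered libraries correlated at 0.00181, 0.0164, -0.0206 and 0.0286 in the 4 comparisons. With the replicate number as a block, colony against parental gave 17 wider and 12 narrower, resistant against parental 17 and 40, resistant against colony 23 and 47, and NRAS against GFP 3 and 5. With no read counts, weak marks under the peak threshold cannot be seen, and 2 libraries per group limit every call.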
